A study of Mus musculus with 43 samples.

Results

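A set of 10 genes of the endoplasmic reticulum (ER) stress response was followed in single neurons of the mouse nucleus accumbens. The genes were chosen by name and not by a threshold, and all 10 were found among the 35825 genes of the tables: *Hspa5*, *Hsp90b1*, *Calr*, *Xbp1*, *Atf4*, *Atf6*, *Ddit3*, *Ern1*, *Eif2ak3* and *Dnajb9*. The 43 cells were neurons of the lateral nucleus accumbens that project to the ventral tegmental area (NAcLat→VTA), marked by fluorescent retrobeads placed in the target and sequenced after whole-cell recording by drawing the cytosol into the pipette (Patch-seq), with 1 library per cell. Of these, 23 cells came from C57BL/6J mice kept on standard chow (REG; labelled NORM) and 20 cells from C57BL/6J mice that could eat freely from standard chow and from chow with 60% fat for at least 4 weeks (HFD). By the methods of the study its mice were of both sexes and 6 to 8 weeks old. By the labels, batch 1 held 13 REG and 5 HFD cells while batch 2 held 10 REG and 15 HFD cells. The labels do not tie a cell to its mouse, and some cells shared a mouse, so each diet counts as 1 sample here. Diets are therefore compared by size, without a test, and SD values give the spread over cells.

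The ER folds and modifies proteins that enter the secretory pathway, and it is well developed in neurons that release peptides. When unfolded protein builds up in its lumen, 3 sensors in its membrane respond (IRE1α, encoded by *Ern1*; PERK, encoded by *Eif2ak3*; and ATF6). IRE1α splices the mRNA of *Xbp1*, PERK phosphorylates the translation factor eIF2α and thereby favours translation of *Atf4*, and ATF6 is cut in the Golgi to release a transcription factor. These branches are known to raise chaperones such as BiP (*Hspa5*), GRP94 (*Hsp90b1*) and calreticulin (*Calr*), the co-chaperone ERdj4 (*Dnajb9*) and, when stress lasts, CHOP (*Ddit3*). Much of this signalling runs through cleavage, phosphorylation, splicing and translation, which gene-level mRNA values do not report. The spliced and unspliced forms of *Xbp1* are not separated in the tables.

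Several of these genes are known to share a promoter motif, the ER stress element (ERSE), read here as CCAAT and CCACG separated by 9 bases on either strand. In RefSeq promoters of GRCm38.p6 that run from 250 bases before to 50 bases after a gene's start, 39 of 32851 sequences (0.119%) held this motif. A promoter was found for 9 of the 10 genes, *Atf6* being the exception, and 3 of the 9 held the motif. They are the 3 lumenal chaperones, and the 250 bases before their starts are shown because the chaperones form the best-measured group below. Capitals mark the ERSE, and each sequence is given on the strand of its gene, at chr2:34771840-34772089 (plus strand) for *Hspa5*, at chr10:86705445-86705694 (minus strand) for *Hsp90b1* and at chr8:84846932-84847181 (minus strand) for *Calr*.
Hspa5: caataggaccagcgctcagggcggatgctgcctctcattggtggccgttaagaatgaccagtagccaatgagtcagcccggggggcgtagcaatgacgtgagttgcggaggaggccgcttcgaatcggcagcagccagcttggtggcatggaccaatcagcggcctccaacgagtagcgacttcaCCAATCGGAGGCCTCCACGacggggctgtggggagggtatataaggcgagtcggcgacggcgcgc
Hsp90b1: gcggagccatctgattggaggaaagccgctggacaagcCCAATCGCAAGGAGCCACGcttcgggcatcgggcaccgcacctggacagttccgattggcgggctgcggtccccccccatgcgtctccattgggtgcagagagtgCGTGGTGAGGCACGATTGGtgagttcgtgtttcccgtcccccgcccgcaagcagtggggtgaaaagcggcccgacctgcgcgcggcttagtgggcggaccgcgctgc
Calr: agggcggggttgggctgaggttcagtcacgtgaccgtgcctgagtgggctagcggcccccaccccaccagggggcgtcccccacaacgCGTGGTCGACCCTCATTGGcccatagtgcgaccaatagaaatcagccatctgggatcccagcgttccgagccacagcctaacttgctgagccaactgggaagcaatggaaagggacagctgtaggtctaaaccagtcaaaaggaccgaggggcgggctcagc

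The first base of the ERSE lay 65 bases before the start of *Hspa5* and 162 bases before that of *Calr*. *Hsp90b1* held a pair of them, beginning 212 and 107 bases before its start, on opposite strands. The element ERSE-II (ATTGG and CCACG separated by 1 base) was in 0.0365% of all promoters, the element UPRE (TGACGTGG) in 0.676% and the element CARE (TTGCATCA) in 0.895%, each searched on both strands, and none of these letter strings was in the 9 promoters. Among the other genes of the pathway, the ERSE was in the promoters of *Canx*, *Pdia6*, *Dnajc3* and *Creld2*, 4 of 16 chaperones and foldases with a promoter, and of *Derl3* and *Syvn1*, 2 of 13 genes of ER-associated degradation. CARE was in 5 of 19 promoters of the integrated stress response list and in 1 of 13 of ER-associated degradation (*Herpud1*). It was in none of the 16 of ER chaperones and foldases or the 9 of cytosolic chaperones. Nor was it in the 17 of the kinases, proteases and eIF2 factors around the sensors. ERSE-II was in the promoters of *Dnajb11* and *Herpud1*, and UPRE in those of *Txndc5*, *Ube2j1* and *Vcp*. A match of letters describes the sequence and not binding.

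The total estimated count per cell ranged from 176961 to 16919555, with a median of 1427698 in REG cells and 1416982 in HFD cells. Counts per 1000000 counts of a cell (CPM) were used to compare cells, and the length-corrected values of the authors, scaled to 1000000 per cell (TPM) were used to compare genes. A single gene, *Lars2*, took between 2.33% and 79.8% of the counts of a cell, so that scalings with and without it are given where they matter. All 10 markers of striatal projection neurons were detected in over 50% of the cells of each diet. They summed to a median of 5138 CPM (2729 to 9019) in REG cells and 3815 CPM (634 to 12173) in HFD cells. In each diet 5 of 7 astrocyte, 4 of 7 microglia and 1 of 7 endothelial markers also passed 50% of the cells. Detection alone therefore does not separate these cell types. The 7 microglia markers summed to a median of 62.8 CPM (0.972 to 1631) in REG cells and 52.5 CPM (3.59 to 1443) in HFD cells, and at least 4 of them exceeded 15 CPM in 4 REG and 5 HFD cells. The 7 astrocyte markers summed to medians of 288 and 313 CPM, and the 7 endothelial markers to 3.23 and 6.71 CPM.

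On the TPM scale the genes fell into a high and a low tier. *Hspa5*, whose product BiP binds unfolded chains in the ER lumen, was the highest, with a median of 151 TPM over the 43 cells and quartiles of 90.3 and 304. Its median exceeded that of 94.7% of the 10802 genes kept by the filter of the study (mean CPM above 4, and more than 15 CPM in 5 or more cells). *Hsp90b1*, the ER member of the HSP90 family, followed at 102 TPM and *Calr*, a calcium-binding lectin chaperone, at 90.2 TPM. *Ddit3* (70.5), *Atf4* (70.0) and *Xbp1* (58.2), which encode transcription factors, came next. *Dnajb9* had a median of 15.1 TPM. The 3 sensors were the lowest, with medians of 2.53 TPM for *Eif2ak3*, 1.48 TPM for *Atf6* and 0 for *Ern1*. In every one of the 43 cells the 3 chaperones together exceeded the 3 sensors together, with a median sum of 379 TPM (91.5 to 1415) against 15.7 TPM (0 to 223).

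**Figure D1:**
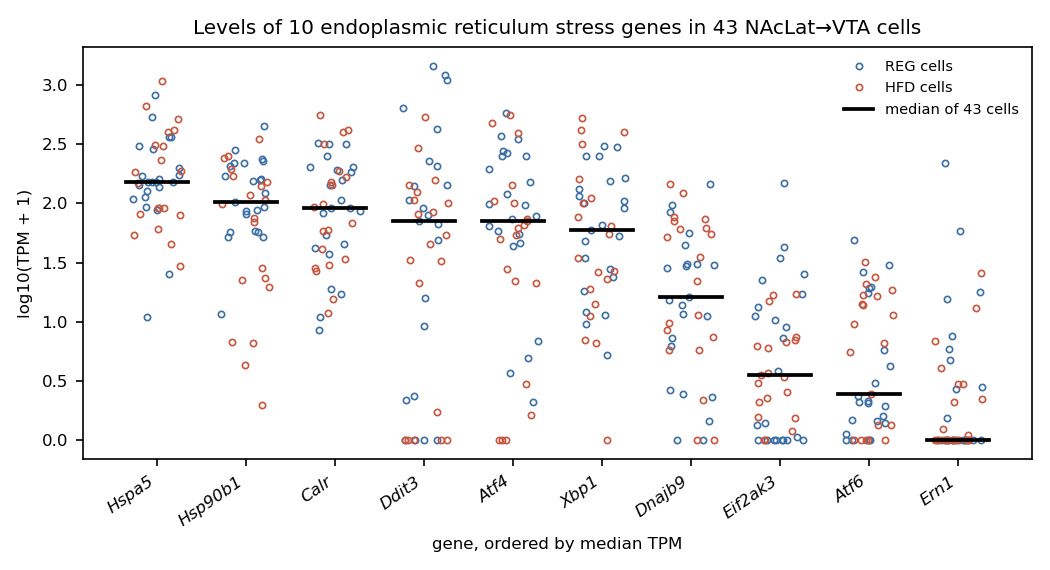
TPM of each gene in each cell, on a log10(TPM + 1) axis, with genes in order of their median; blue circles are REG cells, red circles HFD cells and black bars the median of 43 cells. The medians drop from 151 for *Hspa5* to 58.2 for *Xbp1*, then to 15.1 for *Dnajb9* and to 2.53 or less for the 3 sensors.

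Neighbours in this order were often not separated by their spread. *Hspa5* exceeded *Hsp90b1* in 27 of 43 cells, and *Hsp90b1* exceeded *Calr* in 22. *Ddit3* and *Atf4* had nearly the same median, and *Ddit3* was the lower of them in 25 cells and the higher in 16, with values from 0 to 1440 TPM. *Atf4* exceeded *Xbp1* in 27 cells. The step from *Xbp1* to *Dnajb9* was clearer (34 of 43 cells), as was that from *Dnajb9* to *Eif2ak3* (31 cells), whereas *Eif2ak3* and *Atf6* each led in 20 cells. In both diets *Hspa5* and *Hsp90b1* were first and second, *Xbp1* sixth, *Dnajb9* seventh and *Ern1* last. On CPM, which does not take length into account, *Ddit3* had a median of 27.4 and stood below *Xbp1* (76.0) and *Atf4* (62.1).

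Detection, an estimated count above 0, was most frequent for the chaperones, while *Ddit3* was found in as few cells as *Atf6* despite its higher median. A cell held a median of 9 of the 10 genes, between 6 and 10, and 11 cells held all of them. *Hspa5*, *Hsp90b1* and *Calr* were detected in 43 cells, *Xbp1* in 42, *Atf4* in 40, *Dnajb9* in 39, *Ddit3* and *Atf6* in 34, *Eif2ak3* in 33 and *Ern1* in 20. All 3 sensors were detected together in 13 cells, and in 2 cells none of them was. The 2 diets had the same median, 9 genes per cell.

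Across diets, the chaperones overlapped widely, and the size of their ratios depended on the scaling. *Hspa5* ranged in REG cells from 23.5 to 1401 CPM with a median of 258, and in HFD cells from 53.3 to 1484 CPM with a median of 220. The ranges overlapped almost entirely, with means of 342 ± 307 CPM (SD, n = 23 cells) and 393 ± 382 CPM (SD, n = 20 cells) and a log2 ratio of HFD to REG of 0.20. That ratio was 0.71 in batch 1 and −0.27 in batch 2, and it was −0.03 without the single highest HFD cell (1484 CPM). On TMM factors it was 0.50 and on DESeq2 size factors 1.03. *Calr* ranged from 11.7 to 291 CPM in REG cells (median, 105) and from 15.8 to 637 CPM in HFD cells (median, 92.0). Its ratio was 0.12, with −0.07 in batch 1 and 0.04 in batch 2. It was −0.22 without the highest HFD cell, which carried 24.9% of the summed CPM of *Calr* in that diet, while TMM factors gave 0.49 and DESeq2 size factors 1.46.

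*Hsp90b1* was the chaperone whose mean was lower in HFD cells in both batches. It ranged from 18.9 to 665 CPM in REG cells (median, 223) and from 2.13 to 523 CPM in HFD cells (median, 154). All 23 REG cells but only 16 of 20 HFD cells exceeded 15 CPM, and the lowest cells were HFD cells of both batches. The means were 243 ± 153 and 165 ± 149 CPM (SD), a log2 ratio of −0.56, with −1.30 in batch 1 and −0.38 in batch 2. With any 1 cell left out the ratio lay between −0.73 and −0.44, but it was 0.06 on the size factors of DESeq2 and, within batch 2, −0.07 without the highest REG cell, left out after seeing the data. In batch 1 the 5 HFD cells had 11.2, 11.4, 226, 34.2 and 210 CPM, whereas the 13 REG cells lay between 94.9 and 401 CPM. Of the 4083 words of 31 bases in the transcripts of *Hsp90b1*, 504 also occur in other genes, 337 of them in the overlapping antisense pseudogene *1810014B01Rik*, which averaged 5.48 CPM in REG and 1.18 CPM in HFD cells. Reads made up only of such shared words cannot be assigned to 1 gene of a pair, since the libraries carry no strand.

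**Figure D2:**
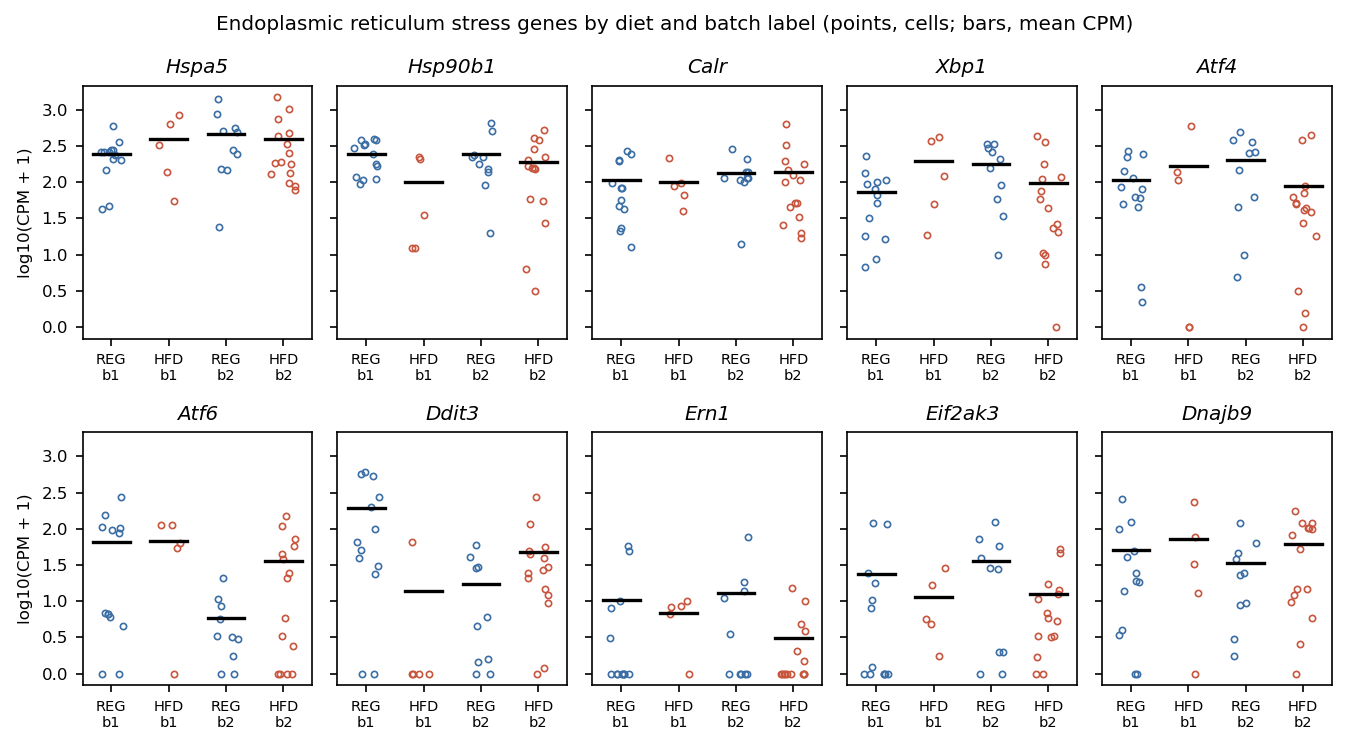
Each panel plots 1 gene as log10(CPM + 1) per cell, with REG cells in blue and HFD cells in red for batch 1 (b1) and batch 2 (b2), and black bars at the mean CPM. Circles of the 2 diets overlap in every panel, while for *Ddit3* 4 of the 5 HFD cells of batch 1 are at 0.

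*Xbp1*, which encodes the transcription factor made by IRE1α splicing, had nearly equal means in the 2 diets, 118 ± 108 CPM in REG and 122 ± 148 CPM in HFD cells (SD), with a log2 ratio of 0.05. The values ran from 5.65 to 338 CPM in REG cells (median, 91.0) and from 0 to 433 CPM in HFD cells (median, 53.5). The batches went in opposite directions, with a ratio of 1.44 in batch 1 and −0.87 in batch 2. In batch 1 the 5 HFD cells had 370, 49.5, 121, 17.5 and 419 CPM, against a highest REG cell of 227 CPM. In batch 2 the median was 183 CPM in REG and 42.9 CPM in HFD cells. The ratio was −0.38 without the 9 cells that carried at least 4 microglia markers, and the part of those markers in it was not tested.

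*Atf4*, the transcription factor downstream of PERK, was detected in 23 of 23 REG cells (100%; exact 95% binomial interval, 85.2% to 100%) and in 17 of 20 HFD cells (85%; 62.1% to 96.8%). It ranged from 1.19 to 500 CPM in REG cells (median, 85.2) and from 0 to 594 CPM in HFD cells (median, 45.6). The means of 148 ± 138 and 108 ± 166 CPM (SD) gave a log2 ratio of −0.46, which was 0.66 in batch 1 and −1.20 in batch 2. The positive value of batch 1 went with 1 of its 5 HFD cells, at 594 CPM, beside values of 137, 106, 0 and 0 CPM, and it was −0.80 without that cell. Of the 3 HFD cells without a count, 2 were in batch 1.

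*Ddit3*, which encodes CHOP, had the largest difference between its batch ratios among the 10 genes. In batch 1 it ranged from 0 to 614 CPM in REG cells with a median of 64.4, and 11 of 13 cells held a count. The 5 HFD cells of batch 1 had 0, 0, 0, 65.0 and 0 CPM. In batch 2 the order was the opposite, with 0 to 58.5 CPM (median, 4.32) in REG cells and 0 to 277 CPM (median, 25.7) in HFD cells, of which 14 of 15 held a count. The log2 ratio was accordingly −3.89 in batch 1, 1.52 in batch 2 and −1.58 over all cells, where the means were 116 ± 193 and 38.7 ± 63.2 CPM (SD). Of the 10802 genes kept by the filter, 3.92% were likewise past 2-fold lower in batch 1 and past 2-fold higher in batch 2. The batch 1 value rests on 175 summed counts in HFD cells (exact 95% Poisson interval, 150 to 203), all from 1 cell. This interval covers counting error only. The binomial intervals for detection treat cells as independent draws, although some cells shared a mouse, so they do not give the spread between mice. The symbol *Ddit3* covers overlapping gene models at chr10:127290774-127296288, and their exons share 68 bases with *Mars*, which is read from the opposite strand and averaged 40.3 CPM in REG and 37.3 CPM in HFD cells.

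Of the sensors, *Eif2ak3* (PERK; chr6:70844515-70905245, plus strand) had a lower mean in HFD cells in both batches. It ranged from 0 to 123 CPM in REG cells (median, 7.0) and from 0 to 52.0 CPM in HFD cells (median, 4.69). The means were 27.8 ± 41.3 and 11.2 ± 14.7 CPM (SD), a log2 ratio of −1.31, with −1.09 in batch 1, −1.61 in batch 2 and between −1.62 and −1.07 with any 1 cell left out. The difference lay in the upper part of the distribution, since 10 of 23 REG cells but 5 of 20 HFD cells exceeded 15 CPM. In batch 1 the medians had the opposite order, 0.214 CPM in REG and 4.59 CPM in HFD cells, and 2 of the 13 REG cells, at 117 and 119 CPM, carried most of the REG mean. Without the highest REG cell, a calculation chosen after seeing the data, batch 1 gave −0.46 and batch 2 gave −1.12. On the mean of log2(CPM + 1), which gives the high cells less weight, the difference was −0.12. Detection went the other way, in 15 of 23 REG cells (65.2%; interval, 42.7% to 83.6%) and 18 of 20 HFD cells (90%; 68.3% to 98.8%). After each cell was thinned to 150000 counts it was detected in 13 REG and 7 HFD cells, so no order is read from the detection. Of its 5991 words of 31 bases, 398 occur in *Gm43292*, an unclassified transcript on the opposite strand.

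*Atf6* (chr1:170704674-170867771, minus strand) had similar means over all cells, 38.8 ± 68.3 CPM in REG and 42.6 ± 46.3 CPM in HFD cells (SD), with a log2 ratio of 0.14. Its values ran from 0 to 273 CPM (median, 5.6) and from 0 to 148 CPM (median, 30.6). Batch 1 gave a ratio of 0.05. In batch 2 the ratio was 2.82, where 1 of 10 REG cells and 8 of 15 HFD cells exceeded 15 CPM. *Atf6* also stood lower in REG cells of batch 2 (mean, 4.88 CPM) than in REG cells of batch 1 (64.9 CPM), which share the diet.

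*Ern1* (IRE1α; chr11:106394650-106487852, minus strand) was at the edge of detection. It exceeded 15 CPM in 4 cells, 1 fewer than the filter asks for, and was the only one of the 10 genes that the filter removed. Counts were present in 10 of 23 REG cells (43.5%; interval, 23.2% to 65.5%) and 10 of 20 HFD cells (50%; 27.2% to 72.8%). It reached 75.7 CPM in REG and 14.2 CPM in HFD cells, and the 4 cells above 15 CPM were all REG cells. The log2 ratio was −1.78, with −0.66 in batch 1 and −2.50 in batch 2. In batch 1 the medians had the opposite order, 0 in REG and 7.43 CPM in HFD cells. Counts were present there in 5 of 13 REG and 4 of 5 HFD cells. One REG cell of batch 2, the most deeply sequenced library, held 71.6% of its 1787 counts. Without the REG cell of highest CPM, which was that same cell, the ratio was −1.30.

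*Dnajb9*, a lumenal J-domain co-chaperone of BiP (chr12:44205559-44210326, minus strand), had a higher mean in HFD cells in both batches. It ranged from 0 to 256 CPM in REG cells (median, 22.3) and from 0 to 236 CPM in HFD cells (median, 41.1), so the diets overlapped over nearly the whole range. The means were 42.2 ± 59.1 and 62.8 ± 65.9 CPM (SD), a log2 ratio of 0.57, with 0.52 in batch 1, 0.87 in batch 2 and 0.35 to 0.95 with any 1 cell left out. In batch 1 the order rests on 1 of 5 HFD cells, at 236 CPM, which held 66.2% of the summed CPM there. Without it the batch 1 ratio was −0.72, a calculation chosen after seeing the data, while that of batch 2 was 0.66 without its highest HFD cell. Without the 9 cells that carried microglia markers it was 0.18, and the part of those markers was not tested. Of its 2545 words of 31 bases, 274 occur in *Gm6568*, which had no count in any cell.

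Read together by size, 9 of the 10 genes passed the filter, and *Ddit3* and *Eif2ak3* were past 2-fold lower in HFD cells while none was past 2-fold higher. On DESeq2 size factors *Hspa5* (1.03), *Calr* (1.46) and *Dnajb9* (1.26) were past 2-fold higher as well. The edgeR coefficient with batch was past 2-fold for *Atf6* (2.0, higher) and *Eif2ak3* (−1.32, lower) and not for *Ddit3* (0.55). No share of all genes was taken for DESeq2 size factors or the edgeR coefficient. On CPM, 14.3% of all genes kept by the filter were past 2-fold lower and 9.04% past 2-fold higher, with a median log2 ratio of −0.13. In batch 1, *Xbp1* was past 2-fold higher (18.3% of all genes) and *Hsp90b1*, *Ddit3* and *Eif2ak3* past 2-fold lower (23.9%). In batch 2, *Atf6* and *Ddit3* were past 2-fold higher (13.5%) and *Atf4* and *Eif2ak3* past 2-fold lower (21.1%). Of the 9 genes, 2 were lower in HFD cells in both batches (*Hsp90b1* and *Eif2ak3*; 29.2% of all genes) and 2 were higher in both (*Atf6* and *Dnajb9*; 20%). *Ern1*, outside the filter, also had a lower mean in both, although its median in batch 1 was higher in HFD cells. Each of the counts on CPM lay within 1 gene of the number that the share of all genes gives for 9 genes, so they do not set the ER stress genes apart. The median log2 ratio of all 10 genes, *Ern1* included, was −0.20, and 0.14 on DESeq2 size factors. Without *Ern1* the median of the 9 genes was 0.05, so the sign depended on this gene. DESeq2 size factors moved the median of all genes kept by the filter by 0.32, and TMM factors moved it by 0.14.

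**Figure D3:**
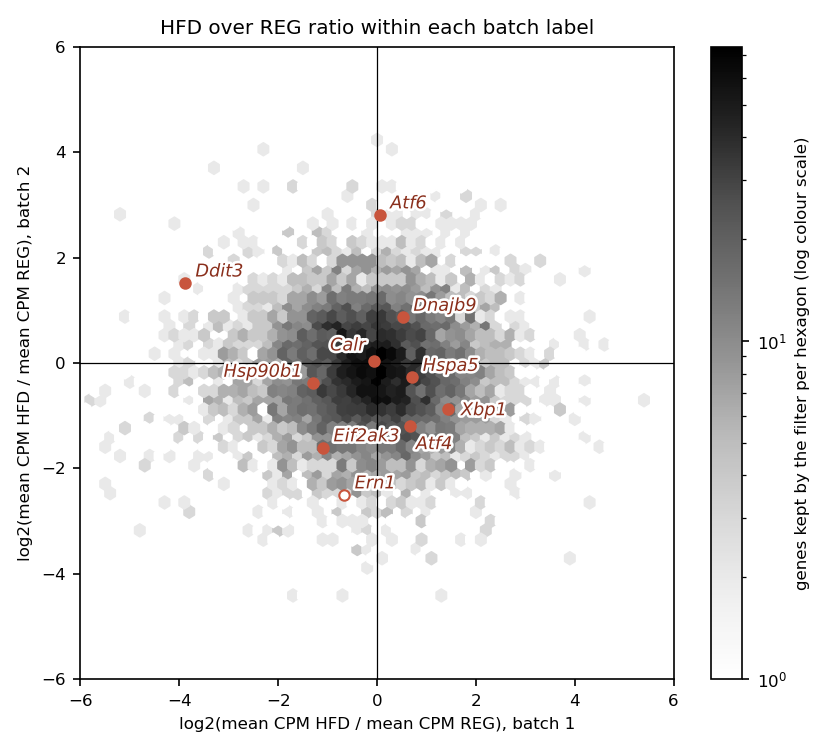
The log2 ratio of mean CPM in HFD cells to that in REG cells, in batch 1 (x axis) and batch 2 (y axis); grey hexagons count the genes kept by the filter on a log colour scale, filled red circles are the 9 genes that passed the filter and the open circle is *Ern1*. *Ddit3* lies at −3.89 and 1.52, and *Eif2ak3* and *Hsp90b1* lie below 0 on both axes; 262 of 10802 genes beyond the axes or without a count in a group are not drawn.

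The genes were also compared over cells. Cells share mice, batches, depth and the share taken by *Lars2*, so rank correlations are given as a description, without a test. Of the 45 pairs, 34 had a Spearman's rho above 0, with a median of 0.11 and a range of −0.28 to 0.55. Only 3 pairs exceeded 0.4, and they joined *Hspa5*, *Calr* and *Xbp1* with each other: 0.55 for *Hspa5* and *Xbp1*, 0.47 for *Calr* and *Xbp1* and 0.43 for *Hspa5* and *Calr* (n = 43 cells). For comparison, the rho of *Hspa5* with all other genes of the filter had a median of 0.05 and a 95th percentile of 0.33, and that of *Xbp1* a median of 0.11 and a 95th percentile of 0.39. The 3 pairs are the highest of 45, so they are the extremes of many comparisons. *Hspa5* and *Calr* also went with the total count (rho, 0.41 and 0.51) and against the share of *Lars2* (−0.35 and −0.38), and their part in these values was not tested. With *Lars2* and *Gm19220* left out of the totals, the 3 values were 0.48, 0.44 and 0.27.

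**Figure D4:**
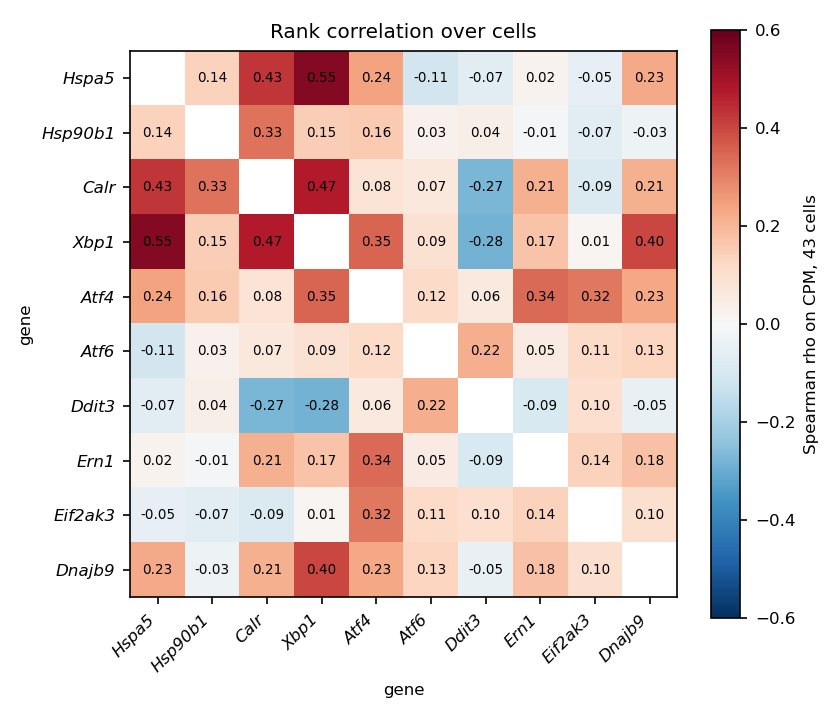
Spearman's rho on CPM over 43 cells for each pair of genes, written in each square and coloured from blue (−0.6) to red (0.6). The darkest red squares join *Hspa5*, *Xbp1* and *Calr*, and *Ddit3* is blue with *Xbp1* (−0.28) and *Calr* (−0.27).

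Within subsets of cells the values of the 3 pairs on CPM moved widely. *Hspa5* and *Xbp1* had a rho of 0.74 in REG cells (n = 23) and 0.26 in HFD cells (n = 20), and 0.65 and 0.44 in batch 1 (n = 18) and batch 2 (n = 25). *Hspa5* and *Calr* had 0.08 in REG cells and 0.68 in HFD cells, and 0.01 in batch 1 and 0.61 in batch 2. Without *Lars2* and *Gm19220* in the totals that pair had −0.04 in REG cells and −0.08 in batch 1. *Calr* and *Xbp1* had 0.38 and 0.55 in the diets, and 0.31 and 0.59 in the batches. Other pairs reached values of like size within 1 diet. *Atf6* and *Ddit3* had 0.55 in REG and −0.18 in HFD cells, and *Hspa5* and *Atf4* had 0.53 and −0.04. *Xbp1* had 0.22 and 0.57 with *Dnajb9*, and −0.08 and −0.58 with *Ddit3*. Whether these values differ between diets was not tested.

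The chaperones that share the ERSE did not all follow each other. *Hsp90b1* had a rho of 0.14 with *Hspa5* and 0.33 with *Calr*. Without *Lars2* and *Gm19220* these were −0.01 and 0.27. *Xbp1*, whose promoter held none of the 4 motifs, had 0.40 with *Dnajb9* and 0.35 with *Atf4*. *Atf4* had 0.34 with *Ern1* and 0.32 with *Eif2ak3*, and of the 11 cells highest in *Atf4*, 6 were among the 11 highest in *Eif2ak3*. This was the largest such overlap of the 45 pairs, which ran from 0 to 6, so it is the extreme of many comparisons. *Ddit3* was lowest in this respect, with −0.28 with *Xbp1*, −0.27 with *Calr* and 0.06 with *Atf4*, a transcription factor known to act on its promoter.

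For the 5 genes detected in at least 40 cells, the genes with the most similar ranks over the 43 cells were read from the 10801 other genes of the filter. They were *Lpgat1* (rho, 0.68), *Csnk1a1* (0.67) and *Ppp1r1b* (0.66) for *Hspa5*, with *Xbp1* in place 24. For *Xbp1* they were *Ddx5* (0.74), *Sbf2* (0.67) and *Atp8b2* (0.65), with *Hspa5* in place 33. For *Calr*, *Ndrg4* (0.71) and *Pgrmc1* (0.69) came first. For *Hsp90b1* they were *Eefsec* (0.63), *Gabrb1* (0.62) and *Yipf3* (0.61), and for *Atf4* they were *1110004F10Rik* (0.66), *Ash1l* (0.62) and *Srprb* (0.61). These values and places are on CPM. With *Lars2* and *Gm19220* left out of the totals, *Csnk1a1* had 0.56, *Ppp1r1b* 0.51 and *Lpgat1* 0.67 with *Hspa5*. On those totals *Ddx5* had 0.62 and *Sbf2* 0.66 with *Xbp1*, and *Ndrg4* had 0.60 with *Calr*. *Nts*, the neuropeptide precursor of these cells, had a rho of 0.26 with *Hspa5*, 0.26 with *Calr*, 0.25 with *Xbp1* and 0.30 with *Dnajb9*. It had 0.27 with *Atf4*, 0.21 with *Ern1*, 0.19 with *Atf6*, 0.08 with *Hsp90b1* and *Ddit3*, and −0.11 with *Eif2ak3*. On CPM each value was below the 95th percentile for its gene. On thinned counts *Dnajb9* had 0.35 with *Nts*, above its 95th percentile of 0.32. Without *Lars2* and *Gm19220* in the totals that pair had 0.21, below 0.30.

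Other genes of the same pathways were read from 4 lists, with 69 of 82 genes kept by the filter. Of the 69 genes, 3 (4.35%) were past 2-fold higher and 11 (15.9%) past 2-fold lower in HFD cells, beside 9.04% and 14.3% of all genes, and their median log2 ratio was −0.27. The split depended on the scaling, with 8 higher and 10 lower on TMM factors and 21 higher and 9 lower on DESeq2 size factors. These factors moved the median of all genes by 0.14 and 0.32, and no share of all genes was taken on them. The 9.04% and 14.3%, which are on CPM, therefore do not apply to counts on these factors. In the list of ER chaperones and foldases 21 of 22 genes were kept, with a median ratio of 0.06, 1 past 2-fold higher and 1 lower. TMM factors gave a median of 0.28 with 4 higher, and DESeq2 size factors one of 0.78 with 9 higher, each with 1 lower. The 3 with the highest mean TPM were *Fkbp2* (318 TPM) and *Ppib* (179 TPM), both prolyl isomerases, and *Sdf2* (143 TPM). Their ratios were 0.06, −0.57 and 0.89. *Sdf2l1*, a stress-induced partner of ER J-domain proteins, was higher in both batches, at 4.24 CPM in REG and 10.7 CPM in HFD cells, with a ratio of 1.33 from 7 and 6 cells with a count.

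In ER-associated degradation, which returns misfolded proteins to the cytosol, 16 of 17 genes were kept, with a median ratio of −0.16. None was past 2-fold higher and 3 were past 2-fold lower, beside 9.04% and 14.3% of all genes. *Sel1l*, the scaffold of the HRD1 ligase, averaged 82.1 TPM and had a ratio of −0.66. The ATPase *Vcp* (100 TPM) had a ratio of 0.11 and *Selenos* (82.4 TPM) one of −0.12, the latter 0.20 on TMM factors and 0.95 on DESeq2 size factors. The derlins *Derl1* and *Derl2*, membrane proteins of the export channel, were past 2-fold lower, in the same direction in both batches. *Derl1* averaged 68.1 CPM in REG and 17.1 CPM in HFD cells (ratio, −2.0; −0.22 in batch 1 and −3.62 in batch 2). *Derl2* averaged 34.2 and 12.6 CPM (ratio, −1.44; −0.36 and −1.96).

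The list of the integrated stress response holds genes known to follow ATF4 and CHOP, and 17 of 22 were kept. Their median ratio was 0.17, with 2 past 2-fold higher and 4 lower, beside 9.04% and 14.3% of all genes. *Slc3a2* (147 TPM), an amino acid transporter subunit, averaged 160 CPM in REG and 75.7 CPM in HFD cells, a ratio of −1.08 that was −0.85 on TMM factors and −0.22 on DESeq2 size factors. *Ppp1r15a* (124 TPM), which encodes GADD34, had a ratio of −0.67, and *Asns* (77.1 TPM), asparagine synthetase, one of 0.17, or −0.37 on TPM. *Gars*, a tRNA synthetase, averaged 73.9 and 22 CPM, with a ratio of −1.75 that was −0.96 in batch 1 and −2.40 in batch 2. *Cebpg* was past 2-fold higher at 6.93 and 20.4 CPM, with a ratio of 0.31 in batch 1 and 1.99 in batch 2. Its ratio was 0.50 at the lowest with 1 cell left out, and counts were present in 17 REG and 12 HFD cells. *Mthfd2* was past 2-fold lower at 8.07 and 2.86 CPM, from 5 REG and 7 HFD cells with a count. For both genes detection thus went against the mean. *Phgdh* (3.0 and 12.1 CPM, past 2-fold higher) and *Sesn2* (8.31 and 3.41 CPM, past 2-fold lower) were each listed at 0 in 1 diet of batch 1. Counts were present in 2 REG and 6 HFD cells for *Phgdh*, and in 8 and 6 for *Sesn2*. The ratio of *Phgdh*, 2.01, was 0.38 on TPM, and that of *Sesn2*, −1.28, was −0.44 on TMM factors, −0.41 on DESeq2 size factors and −0.46 without *Lars2* and *Gm19220*. The median of the list was −0.32 on TPM and 0.46 on TMM factors, so its sign depends on the scaling.

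Among the kinases, proteases and eIF2 factors around the sensors, 15 of 21 genes were kept, with a median ratio of −0.51. None was past 2-fold higher, beside 9.04% of all genes, and 3 were past 2-fold lower, beside 14.3%. All 3 were subunits of eIF2B, the exchange factor that phosphorylated eIF2 blocks. *Eif2b4* averaged 76.1 CPM in REG and 31.4 CPM in HFD cells (ratio, −1.28; −1.36 in batch 1 and −0.94 in batch 2). *Eif2b2* averaged 48.9 and 19.1 CPM (ratio, −1.35; −0.40 and −2.10), and *Eif2b5* 45.1 and 22 CPM (ratio, −1.03; −1.97 and −0.95). On DESeq2 size factors *Eif2b2* was at −0.86, no longer past 2-fold. The other subunits on the list were not past 2-fold, with a ratio of −0.27 for *Eif2b1* (−1.75 in batch 1 and 0.30 in batch 2) and of 0.84 for *Eif2b3* (0.12 and 1.21). *Creb3* had a ratio of −0.43, or 0.64 on DESeq2 size factors. The list's median was between −0.82 and −0.33 under the other scalings and without the cells with microglia markers.

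**Figure D5:**
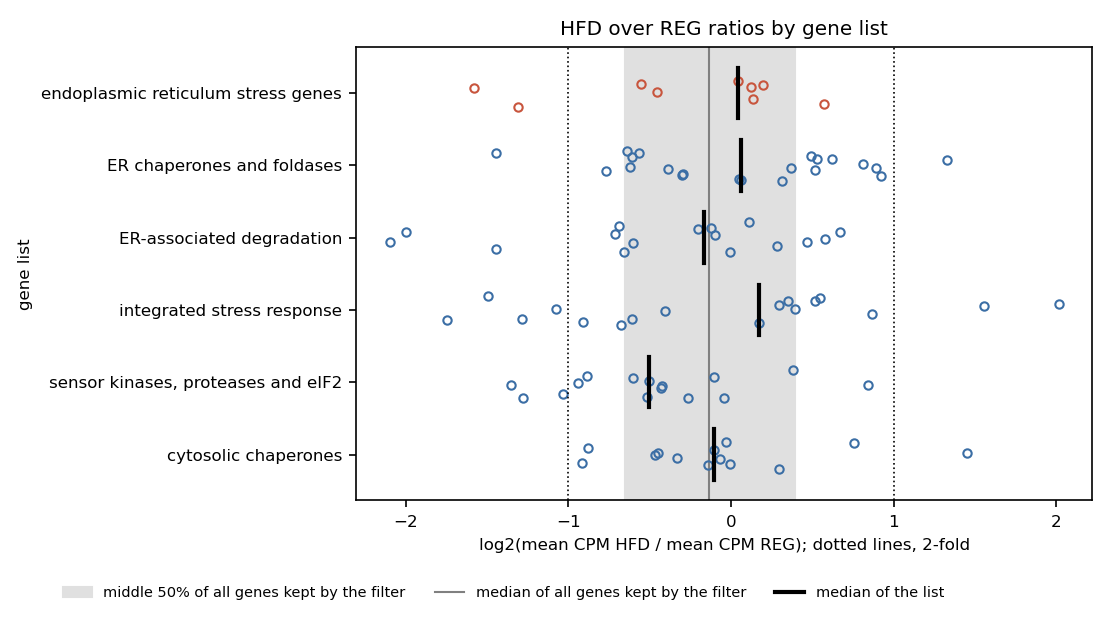
The log2 ratio of mean CPM in HFD cells to that in REG cells for each gene kept by the filter, by list; red circles are the 9 ER stress genes, blue circles the genes of the other lists, black bars list medians, the grey line and band the median and middle 50% of all genes, and dotted lines mark 2-fold. The medians lie between −0.51 and 0.17, all within the grey band.

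Chaperones of the cytosol and mitochondria, which serve other compartments, gave a comparison outside the ER. Here 13 of 14 genes were kept, with a median ratio of −0.11. Of these, 1 was past 2-fold higher and none lower, beside 9.04% and 14.3% of all genes. *Hspa8* (925 TPM), *Hsp90aa1* (793 TPM) and *Hsp90ab1* (732 TPM) were well above *Hspa5* (mean, 228 TPM) on the same scale. The ratio was −0.01 for *Hspa8*, −0.45 for *Hsp90aa1* and −0.33 for *Hsp90ab1*, and the latter pair had 0.23 and 0.59 on DESeq2 size factors. The list median of the 9 ER stress genes, 0.05, differed from that of the cytosolic list by less than the distance between the batches. In the batches the ER stress genes had 0.05 and −0.27 and the cytosolic list −0.71 and −0.11. The order of the 2 lists depended on the scaling. TMM factors gave 0.03 for the ER stress genes and 0.22 for the cytosolic list, and DESeq2 size factors 0.22 and 0.72. On TPM the values were 0.16 and −0.10.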

How the data were processed

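Full-length cDNA libraries (SMART-Seq, without strand information) of 43 NAcLat→VTA cells were analysed, 23 REG and 20 HFD. The authors pseudo-aligned reads to the mouse transcriptome (GRCm38; submitters' notes name kallisto and edgeR), summed transcripts to gene symbols and left out cells with few reads or genes. They deposited a table of expected counts (estimated counts, not normalized) and a table of TPM, scaled by the authors to 1000000 per cell.

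CPM was the estimated count over the cell's total times 1000000, and diets were compared by the log2 ratio of mean CPM, without a pseudocount. Genes were kept with a mean CPM above 4 and more than 15 CPM in 5 or more cells. Shares carry exact (Clopper-Pearson) 95% intervals and summed counts exact Poisson intervals. Cells of 1 mouse are not independent and mice are not named, so no test was made. Thinning drew 150000 counts per cell. edgeR and DESeq2, on rounded counts, gave scaling factors and coefficients only. The calculation of the ratio was checked on simulated data, in which 200 of 10802 genes were changed by known folds. Unchanged genes had a median log2 ratio of −0.02, with quartiles of −0.50 and 0.46. Cells were drawn independently, without batches or mice, so this check does not cover spread between batches or mice. Words of 31 bases and gene positions came from GENCODE M21, and promoters from RefSeq (GRCm38.p6).

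The 10 genes and all lists were chosen with earlier results of these data known. Named genes were the 10, the 3 of each list with the highest mean TPM, those past 2-fold whose sign held within each batch and without any 1 cell, and the 3 of highest Spearman's rho, of which 1 is not reported here. *Hm13*, listed for ER-associated degradation, was not found under that symbol. Fits ran in R 4.3.3 with edgeR 4.0.16 and DESeq2 1.42.0; all else ran in Python 3.11.15 (pandas 2.3.3 and numpy 2.4.6; scipy 1.17.1 for intervals; figures by matplotlib 3.10.9).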

Additional observations from a re-analysis of the deposited data

How the results depend on the processing

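Counting depth limits *Ern1* and *Eif2ak3* most, and batch is not balanced over the diets. The median log2 ratio of the 10 genes (−0.20) was −0.14 on TPM, −0.12 on TMM factors, 0.14 on DESeq2 size factors and −0.14 with totals without *Lars2* and *Gm19220*. It was −0.29 on summed counts, −0.27 as the difference of mean log2(CPM + 1) and −0.37 without the highest cell of each diet. It was −0.0061 in batch 1, −0.32 in batch 2 and −0.52 without the cells with microglia markers, and with any 1 cell left out it lay between −0.32 and −0.10. It could not be fitted for medians over cells or edgeR, where *Ern1* had no value. Without *Ern1*, the median of the 9 genes that passed the filter was 0.05. That median was 0.16 on TPM, 0.03 on TMM factors and 0.22 on DESeq2 size factors. It was 0.0087 with totals without *Lars2* and *Gm19220*, and −0.38 without the cells with microglia markers. The number of genes past 2-fold (2) was 5 on DESeq2 size factors, 1 for the ratio of medians (*Atf6*, higher), 4 in batch 1, 4 in batch 2 and 4 at a log2 limit of 0.5. It was 2 with any 1 cell left out. Shares of all genes past 2-fold were taken on CPM only, over all cells and within each batch. *Ddit3* (−1.58) reversed to 1.52 in batch 2 and to 0.55 for the edgeR coefficient with batch. In alternatives chosen after seeing the data, which left the highest HFD or REG cell out of batch 2, it was 0.91 and 2.01. Under the other alternatives, *Eif2ak3*, *Dnajb9* and *Atf6* kept their sign in 15 of 15 and *Ern1* in 12 of 12, although *Atf6* was −0.06 with 1 cell left out, and within batch 1 without the highest HFD cell *Dnajb9* was −0.72 and *Atf6* −0.20, and without the highest REG cell *Ern1* was 0.12. No paired analysis was possible because replicate numbers only name cells and no test was made.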
